A study of Mus musculus with 25 samples.

Results

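Hepatoblastomas (HBs) from mice fed dodecanedioic acid (DDDA) were compared with HBs from mice on a standard diet by RNA-Seq. The comparison takes the 5 libraries labelled DDDA-Tumor (DT3167, DT3168, DT2270, DT2277 and DT2264) and the 5 labelled NFD-Tumor (s1758, s1799, s1800, s2138 and s2139), which are 10 of the 25 samples in the series. All 10 mice were of the FVB strain and carried tumors raised by hydrodynamic tail vein injection, at 6 to 7 weeks of age, of Sleeping Beauty vectors for Δ(90), a stabilized and oncogenic β-catenin, and of YAP S127A, a form of the Hippo pathway effector that stays in the nucleus. The labels write the injected DNA as SB_Del90+xloc+SB_YAP S127A in both groups. Standard diet mice ate normal chow throughout, and DDDA mice ate chow with 10% DDDA for 3 weeks per the study's text, or 3 to 4 weeks per the labels, after about 8 weeks of tumor growth on normal chow. The age at sacrifice is not given per sample in the sources used here. The vectors enter hepatocytes in the living mouse, so the tumors are not a cell line, and the labels name 1 animal for each library. Because they name neither litter nor cage, the p-values measure only the spread between these animals. The 5 livers of each diet, from mice that were not injected, are used only where their values stand beside those of the HBs.

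DDDA is a medium-chain dicarboxylic acid. It is formed when the microsomal Cyp4a enzymes oxidize the far end of lauric acid, and it is shortened in peroxisomes by enzymes that include the bifunctional protein Ehhadh. The study gave the diet to ask how HBs respond to it. The genes called below fall into several systems. HIF-1α is the oxygen-regulated subunit of a transcription factor that binds short DNA motifs upstream of its targets, and the prolyl hydroxylases (Egln1, Egln2 and Egln3) mark it for degradation when oxygen is present. CD36 is a surface transporter of long-chain fatty acids, ABCC3 exports organic anions and bile acid conjugates from hepatocytes, and TPP1 and PPT2 are lysosomal hydrolases.

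The HB libraries held 16818785 to 19308728 counts on the standard diet (median 18021311) and 18323912 to 29783324 on DDDA (median 18910237). 1 flow cell held all 5 standard diet HBs and 2 others the DDDA HBs, of which DT3168 was the one HB on its flow cell. Diet and sequencing run therefore cannot be told apart, in the HBs or in the livers, whose libraries are divided in the same way. The study names 1 kind of sequencer, a NovaSeq, but the flow cell names of the standard diet libraries have another form than those of the DDDA libraries, so whether diet was also confounded with the instrument is not known. Headers in the table mark reads as paired and as trimmed for the standard diet HBs, and the headers of the DDDA HBs carry neither mark. The sexes were unequal, with 2 females and 3 males on the standard diet and 4 females and 1 male (DT2270) on DDDA. Hepatocyte identity was present in all 10 HBs. Alb, which encodes albumin, stood at 14192 to 24074 CPM (gene counts scaled to library size with TMM factors) on the standard diet and 16319 to 43560.4 on DDDA. Afp, the fetal albumin homolog often raised in HB, stood at 5.98 to 25.7 CPM on the standard diet and reached 618 in DT2277, with 5.49 to 31.5 in the other 4 DDDA HBs. In bulk tissue, fewer cells of a type and less RNA per cell cannot be told apart.

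The number of genes that passed depended on the test and the fit. By edgeR's quasi-likelihood F-test, 14 of 14082 genes (0.0994%) were higher and 28 (0.199%) were lower in DDDA HBs at an adjusted p under 0.05, which is what called means here. Without adjustment 2299 genes had a p under 0.05, and the median log2 fold change (DDDA minus standard diet) over all genes was 0.06. Of the 14082 genes, 7954 had a log2 fold change above 0. In each of the 42 called genes the 2 groups of 5 did not overlap, which was true of 338 genes with DDDA higher (2.40%) and 321 with DDDA lower (2.28%). DESeq2 called 336 higher and 399 lower, and edgeR with all 20 libraries in one fit called 367 and 313. With the trend of counts against transcript length removed, 20 genes were called higher and 21 lower. The 42 genes kept their direction in all alternatives run, but with groups that did not overlap, leaving out libraries could hardly change it. The calls depended on single libraries. Without s1758, s1799, s1800, s2138 or s2139 there were 2, 1, 3, 0 and 0 genes called higher and 6, 4, 14, 2 and 1 called lower. Leaving out DT3167, DT3168, DT2270, DT2277 or DT2264 gave 3, 11, 5, 3 and 60 higher and 7, 12, 13, 4 and 63 lower. Only Hist1h2ao was called in all 10 of these fits. Leaving out DT2264 is the one omission that raised the count, and all 42 genes remained called in it. With sex as a covariate 6 genes were higher and 12 lower, and 11 of the 42 remained. In the 6 females alone (2 against 4) none was called in either direction, with 924 genes at an unadjusted p under 0.05.

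**Figure D1:**
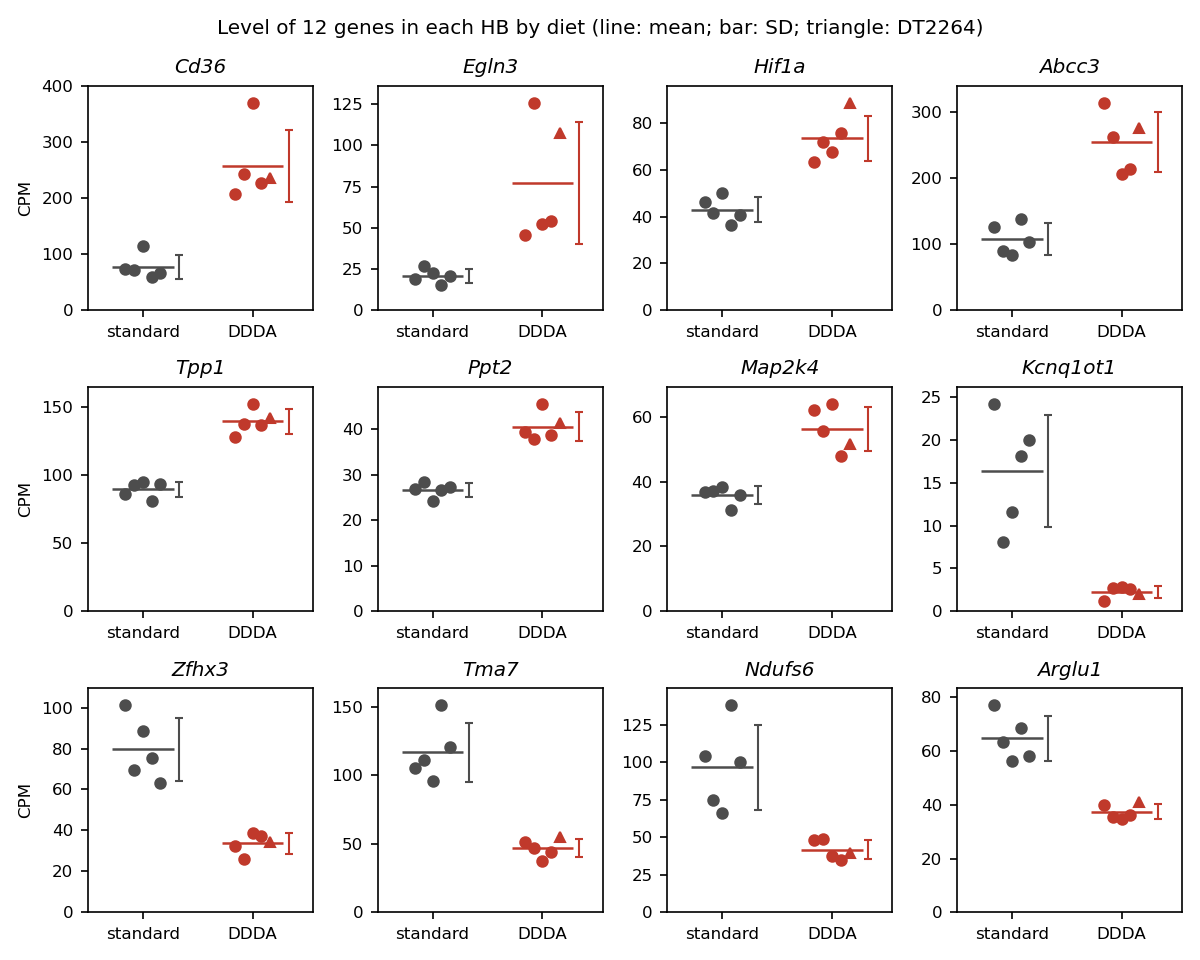
CPM of 12 called genes in each HB, by diet, with 5 HBs a diet. Each point is 1 HB, the horizontal line is the mean, the bar is the SD, and the triangle is DT2264. In all 12 the diets do not overlap, and Cd36 lies at 59.1 to 114 CPM on the standard diet and 209 to 371 on DDDA.

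2 genes of the oxygen-sensing pathway were called higher. Egln3, the prolyl hydroxylase that is itself a HIF target, stood at 18.999, 27.2, 22.4, 15.6 and 21.0 CPM in the standard diet HBs (in the order s1758, s1799, s1800, s2138 and s2139, used throughout). In the DDDA HBs it stood at 45.8, 126, 52.4, 54.1 and 107 CPM (in the order DT3167, DT3168, DT2270, DT2277 and DT2264). DT3168 and DT2264 were the highest, and the other 3 were also above every standard diet HB. Its log2 fold change was 1.87 (SE 0.31, adjusted p = 0.0416), and it was called in 1 of the 10 fits that left out 1 library (adjusted p 0.0376 to 0.139), the one without DT2264. Hif1a, which encodes HIF-1α, stood at 46.2, 41.7, 50.2, 36.3 and 40.6 CPM on the standard diet and at 63.2, 71.7, 67.4, 75.6 and 88.5 on DDDA. The lowest DDDA value was thus 63.2 CPM against a highest standard diet value of 50.2, and DT2264 was the highest of all. Its log2 fold change was 0.77 (SE 0.13, adjusted p = 0.0416, 0.0369 to 0.139 with 1 library left out). With sex as a covariate neither gene was called (adjusted p = 0.0911 and 0.0911). Without DT2264 the log2 fold changes were 1.73 for Egln3 and 0.70 for Hif1a. Egln2, another prolyl hydroxylase, was at -0.48 on the log2 scale with an adjusted p of 0.138. Of the 9 HIF subunit and prolyl hydroxylase genes tested, 2 were called higher and none lower, with a median log2 fold change of 0.16.

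HIF complexes recognize the core ACGTG or GCGTG, so the promoters of these 2 genes are shown with each occurrence of ACGTG or GCGTG, on either strand, in capitals (CACGT and CACGC when read from the strand printed). The sequences are from RefSeq on GRCm38.p6 and run 5′ to 3′ on the strand of the gene, from 250 bases before to 50 after the start. Egln3 lies on the minus strand at chr12:54203825-54204124 and Hif1a on the plus strand at chr12:73907617-73907916.
Egln3: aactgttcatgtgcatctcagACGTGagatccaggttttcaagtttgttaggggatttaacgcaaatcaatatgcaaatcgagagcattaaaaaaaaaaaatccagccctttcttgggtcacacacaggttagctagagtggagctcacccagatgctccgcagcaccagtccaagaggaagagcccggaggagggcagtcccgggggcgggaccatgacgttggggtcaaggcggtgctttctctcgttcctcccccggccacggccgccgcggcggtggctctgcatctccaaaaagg
Hif1a: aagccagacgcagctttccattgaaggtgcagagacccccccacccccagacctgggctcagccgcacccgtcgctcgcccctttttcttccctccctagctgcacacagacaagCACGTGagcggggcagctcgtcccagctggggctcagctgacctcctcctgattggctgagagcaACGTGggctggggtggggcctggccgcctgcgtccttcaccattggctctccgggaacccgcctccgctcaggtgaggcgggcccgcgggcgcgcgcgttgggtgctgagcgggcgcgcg
The Egln3 window held 1 match, which began at position -229 from the start. The Hif1a window held 3, at -135, -134 and -70, of which the first and the second overlap in the palindrome CACGTG. Such matches were common. Of 27025 genes with a promoter in the table, 46.7% held one, as did 65.2% of the genes tested, 4 of the 6 called higher that had a promoter there and 17 of 23 called lower. Of the 27 hypoxia targets tested, taken up below, 19 had a promoter there and all 19 held a match. A match describes letters only and is no evidence of binding.

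Across the wider set of hypoxia targets, Egln3 alone of 27 was called. The median log2 fold change of the list was 0.42 with 22 of 27 above 0, and -0.04 without DT2264. The mean log2(CPM + 0.5) of the list lay at 4.78 to 5.07 in standard diet HBs, at 4.82 to 5.25 in 4 DDDA HBs and at 6.397 in DT2264. Only DT2277 and, by far more, DT2264 were above the standard diet range of the list, whereas Egln3 and Hif1a were above the standard diet range in all 5. Bhlhe40, a transcriptional repressor and hypoxia target, stood at 78.8, 81.3, 85.6, 84.0 and 135 CPM against 141, 154, 230.5, 250.1 and 247. Its groups did not overlap, at 1.14 on the log2 scale (SE 0.22, adjusted p = 0.06). None of 25 glycolysis genes was called. Their median was 0.47, with 21 of 25 above 0, and it was 0.08 when DT2264 was left out. Aldoa, the glycolytic aldolase, reached 724 CPM in DT2264 and 145 to 325 in the other DDDA HBs, against 113 to 165 on the standard diet (adjusted p = 0.209).

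Cd36 was called higher. It stood at 73.7, 72.2, 114, 59.1 and 66.1 CPM in standard diet HBs and at 209, 243, 371, 228 and 237 in DDDA HBs, or 77.1 ± 21.6 against 258 ± 64.6 (SD, n = 5 each). Even the lowest DDDA value, in DT3167, was well above the highest standard diet value, in s1800. The log2 fold change was 1.74 (SE 0.22, adjusted p = 0.0143), and Cd36 was called in 6 of the 10 fits that left out 1 library (adjusted p 0.0151 to 0.0717) and with sex as a covariate (adjusted p = 0.04). With all 20 libraries in one fit it was the one gene of the 42 that lost its call (adjusted p = 0.0735). It was the one gene called among 25 tested for fatty acid uptake and lipid droplets, where the median log2 fold change was 0.04, and among 33 PPARα targets, where it was 0.23 with 24 above 0. PPARα is the nuclear receptor that raises fatty acid oxidation genes in liver. Cyp4a14, a PPARα target and one of the enzymes that begin ω-oxidation, was uneven. It stood at 2.16, 7.96, 4.92, 3.44 and 4.03 CPM on the standard diet and at 4.67, 174, 1.32, 110.4 and 59.6 on DDDA, so that 3 DDDA HBs were far above the rest and DT2270 was below all 5 standard diet HBs (adjusted p = 0.136). None of 39 genes of dicarboxylic acid and peroxisomal oxidation was called, with 23 above 0 and a median of 0.15. Over all genes tested, 7954 of 14082 were above 0, a share near that of these 39. In these HBs the list lay at mean log2(CPM + 0.5) of 6.01 to 6.57 on the standard diet and 5.64 to 6.69 on DDDA, with DT2264 the lowest.

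Abcc3, which also responds to NRF2, the regulator of the antioxidant response, was called higher. CPM were 127, 89.5, 83.2, 139 and 103 on the standard diet and 314, 262, 206, 214.7 and 277 on DDDA, which is 1.23 on the log2 scale (SE 0.18, adjusted p = 0.0325, 0.0339 to 0.131 with 1 library left out). It was the one called gene of 39 NRF2 and pentose phosphate genes, whose median was 0.34 with 31 above 0, and of 24 bile acid and organic anion transporters, whose median was 0.11. Among the former, Pgd, a dehydrogenase of the pentose phosphate pathway, had groups that did not overlap (56.3 to 72.1 against 79.7 to 134 CPM) and an adjusted p of 0.0614. The lysosomal hydrolases moved by less but with little spread. Tpp1, a peptidase, stood at 81.4 to 94.8 CPM on the standard diet and 128 to 152 on DDDA (0.64 on the log2 scale, adjusted p = 0.0309), and Ppt2, a thioesterase, at 24.2 to 28.5 and 37.7 to 45.6 (0.60, adjusted p = 0.0383). Map2k4, a kinase that activates JNK, stood at 31.3 to 38.3 and 47.9 to 64.0 CPM (0.65, adjusted p = 0.0421). These 3 genes were each called in 1 of the 10 fits with a library left out, the one without DT2264, at adjusted p up to 0.15 in the rest. Gm5601, a predicted gene, was also called, at 0.942 to 1.77 against 3.71 to 8.44 CPM.

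The other 6 genes called higher were γ-protocadherins, cell adhesion proteins best known from neurons and encoded in 1 cluster on chromosome 18. Pcdhgb7, Pcdhga12, Pcdhgb5, Pcdhgc3, Pcdhga10 and Pcdhgb6 had log2 fold changes of 4.07, 4.54, 4.97, 5.10, 6.12 and 6.17, at adjusted p of 0.0143 to 0.0421. In the same order they were called in 8, 2, 1, 2, 6 and 3 of the 10 fits with 1 library left out. Without DT2264 the log2 fold changes of Pcdhgc3, Pcdhgb5 and Pcdhga12 were 3.82, 4.16 and 3.798, without s1758 that of Pcdhgb6 was 7.29, and without s2139 that of Pcdhga12 was 5.19. Levels were low. Pcdhgc3, the most abundant, stood at 0.609, 1.25, 1.18, 0.543 and 0.567 CPM on the standard diet and at 9.78, 10.4, 6.61, 20.6 and 97.8 on DDDA, while the other 5 stayed at or under 9.48 CPM in every HB. DT2264 held the highest level of Pcdhgc3 by a wide margin. The 22 γ-protocadherin genes in the table summed to 39 to 113 counts per standard diet HB and 401 to 3200 per DDDA HB, and all 22 had more counts on DDDA. Only 8 passed the filter on low counts, a filter they met through the DDDA libraries, so the 8 are no sample of the family. In livers the 22 summed to 17 to 39 counts on the standard diet and 187 to 496 on DDDA. These genes share their last exons, and how the counting divided shared reads is not given in the sources used here, so values of single members are uncertain.

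Most genes called lower encode small proteins. Tma7, a translation machinery associated protein, stood at 105, 111, 95.8, 151 and 120.3 CPM on the standard diet and at 51.0, 46.9, 37.5, 43.7 and 55.0 on DDDA. The groups were widely separated, and the log2 fold change was -1.32 (SE 0.15, adjusted p = 0.0143). It was called in 9 of the 10 fits that left out 1 library (adjusted p 0.0147 to 0.0547). Ndufs6, a subunit of respiratory complex I, stood at 104, 74.7, 66.4, 138 and 99.9 CPM and at 48.4, 48.9, 37.4, 34.8 and 39.5 (-1.21, SE 0.20, adjusted p = 0.0416). Another complex I subunit, Ndufa3 (48.2 to 77.3 against 22.2 to 31.4 CPM, -1.09 on the log2 scale), and Atp5k (35.7 to 73.2 against 13.0 to 24.5 CPM, -1.42 on the log2 scale), a small subunit of ATP synthase, were called as well, with Minos1 (65.1 to 90.6 against 38.2 to 50.6 CPM, -0.75 on the log2 scale), a part of the complex that shapes the inner mitochondrial membrane, and Smdt1 (70.7 to 84.3 against 47.0 to 54.9 CPM, -0.60 on the log2 scale), a regulator of the mitochondrial calcium uniporter. Of ribosomal protein genes and their relatives, Rpl34 (5.91 to 11.5 against 2.61 to 4.11 CPM, -1.43 on the log2 scale), Rpl22l1 (70.8 to 124 against 27.2 to 47.6 CPM, -1.30 on the log2 scale) and Rpl36al (201 to 276 against 117 to 157 CPM, -0.77 on the log2 scale) were called. Rpl34 and Rpl36al have close copies elsewhere in the genome, so their counts are uncertain.

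The same direction was seen across these lists, though few members passed the test. Of 79 cytosolic ribosomal protein genes 1 was called lower, and 72 had a log2 fold change below 0 (median -0.42). Of 37 complex I genes 2 were called lower and 34 were below 0 (median -0.38), of 43 genes of complexes II to V 1 was called and 30 were below 0 (median -0.21), and of 29 mitochondrial import and chaperone genes 1 was called and 18 were below 0 (median -0.11). Over all genes tested, 6128 of 14082 were below 0. Ribosomal protein genes in DT2264 lay at a mean log2(CPM + 0.5) of 8.64, within the standard diet range of 8.08 to 8.74, whereas the other 4 DDDA HBs lay at 7.69 to 7.94, below that range. Without DT2264 their median was -0.63. Complex I genes lay at 5.75 to 6.43 on the standard diet and 5.54 to 5.81 on DDDA, so the ranges overlapped. Rpl39 (240.1 to 349.8 against 91.2 to 194 CPM), Ndufb11 (105 to 183 against 67.2 to 80.6), Timm13 (76.2 to 130.4 against 48.2 to 66.0) and Hspe1 (130.0 to 264 against 92.8 to 108) had groups that did not overlap and adjusted p of 0.0527, 0.0565, 0.0565 and 0.06. The mitochondrial import and chaperone list was mixed. In it the groups did not overlap in 4 genes with DDDA lower and in 2 with DDDA higher.

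Transcript length moved with this difference. Of the 28 genes called lower, 16 had a summed exon length under 1000 bases (median 770), against none of the 14 called higher (median 5083.5) and a median of 3857.5 over all genes tested. The median log2 fold change was -0.71 over 50 genes under 500 bases and -0.33 over 497 genes of 500 up to 1000 bases, of which 88% and 74.4% were below 0, and it lay between -0.06 and 0.10 in the longer classes. Livers showed the same order with smaller values, -0.49 and -0.13 in the 2 shortest classes. When the length trend was removed from each library, the medians became -0.12 for ribosomal proteins, -0.04 for complex I and 0.02 for complexes II to V, the last with its sign turned, and 29 of the 42 genes remained called. Tma7 (adjusted p = 0.0222) and Ndufs6 (0.0482) were among these. The 13 that were not were Ndufa3 (0.198), Atp5k (0.106), Rpl34 (0.0685), Rpl36al (0.226), Smdt1 (0.42), Rpl22l1 (0.0584), Phpt1 (0.066), Fam25c (0.112), Lsm7 (0.0806), Nme3 (0.131), Tbca (0.13), Tmem258 (0.173) and, of genes called higher, Map2k4 (0.0516). The part of the sequencing run in this trend cannot be told apart from that of the diet.

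**Figure D2:**
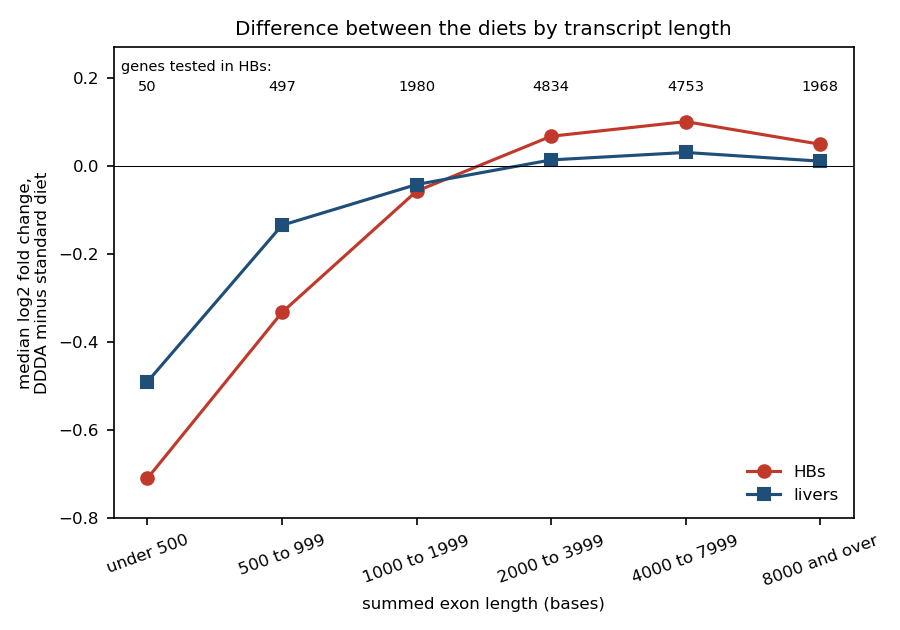
Median log2 fold change between the diets (y axis, DDDA minus standard diet) for genes in 6 classes of summed exon length (x axis, bases), in HBs (circles) and livers (squares), with the number of genes tested in HBs above each class. In HBs the median is -0.71 in the shortest class and 0.10 from 4000 up to 8000 bases, and the livers run in the same order.

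Kcnq1ot1, the long noncoding RNA that silences an imprinted domain on chromosome 7, was called lower. It stood at 24.2, 8.06, 11.6, 18.2 and 19.96 CPM on the standard diet and at 1.195, 2.78, 2.82, 2.64 and 2.06 on DDDA. The log2 fold change was -2.83 (SE 0.35, adjusted p = 0.0143), and it was called in 7 of the 10 fits that left out 1 library (adjusted p 0.0233 to 0.0717). It runs antisense to Kcnq1, and whether strand was used in counting is not given in the sources used here. Of 25 long noncoding and snoRNA host RNAs it was the one called, while 21 had a fold change below 0 (median -0.58, -0.22 with the length trend removed). Malat1, an abundant nuclear RNA, stood at 1164, 426, 568, 1118 and 1018 CPM against 200.4, 231, 575, 239 and 258, and DT2270 lay inside the standard diet range (adjusted p = 0.111). Zfhx3, a large homeobox transcription factor, stood at 101, 69.7, 88.4, 75.3 and 63.4 CPM and at 32.2, 25.9, 38.8, 37.3 and 34.1 (-1.24, SE 0.16, adjusted p = 0.0148). Arglu1, a splicing regulator rich in arginine and glutamate, stood at 56.2 to 77.2 against 34.6 to 41.1 CPM (-0.79, adjusted p = 0.0308), the one called of 30 splicing regulators, 25 of which were below 0 (median -0.27). In the same list Ppig and Luc7l3, whose groups did not overlap, had log2 fold changes of -0.72 and -0.91 (adjusted p = 0.0695 and 0.0794).

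Among called genes the largest difference was in Hist1h2ao, a replication-dependent histone H2A gene on chromosome 13, which held 750 to 2042 counts in standard diet HBs and 0 to 14 in DDDA HBs (adjusted p = 1.99e-04, 2.77e-05 to 0.0022 with 1 library left out). In livers it held 14 to 104 counts on the standard diet and 0 in all 5 on DDDA. The Hist1h2a genes together summed to 781 to 2114 counts per standard diet HB and 28 to 77 per DDDA HB. On the standard diet nearly all of this sum was Hist1h2ao itself, as in s1758 with 1440 of 1481 counts. All Hist1 genes summed to 3085 to 4874 counts on the standard diet and 1314 to 6328 on DDDA, which overlap. Because the Hist1h2a genes are nearly identical, and replication-dependent histone mRNAs lack the poly(A) tail used for selection, their counts are uncertain. Of 19 replication-dependent histone genes tested, none other was called, and the median was -0.06. Vamp5, a membrane fusion protein of muscle and endothelium (39.3 to 49.7 against 17.4 to 24.9 CPM, -1.13), and Phpt1, a phosphohistidine phosphatase (34.1 to 48.1 against 14.9 to 20.7 CPM, -1.15), both at an adjusted p of 0.0143, were called in 7 of the 10 fits with 1 library left out, though Phpt1 lost its call with the length trend removed. Fam25c stood at 78.3, 116, 74.0, 71.0 and 77.9 CPM and at 31.1, 8.43, 10.4, 26.0 and 16.9 (-2.17, adjusted p = 0.0416), and the predicted gene Gm32643 at 103, 111, 129.7, 146 and 173 and at 20.7, 63.0, 23.4, 46.1 and 25.8 (-1.89, adjusted p = 0.0421). The rest were Anapc13, a subunit of the anaphase-promoting complex, Lsm7, which binds U6 snRNA, Tmem258, a subunit of oligosaccharyltransferase, the tubulin cofactor Tbca, the nucleoside diphosphate kinase Nme3, the transcriptional coactivator Sub1 and A330049N07Rik, with log2 fold changes of -2.67 to -0.65. Gm34137, the mucin gene Muc6, LOC105246496 and Gm35591 were called at mean levels under 5 CPM in both diets, at -4.53, -4.14, -2.35 and -1.78. Gm34137, Muc6 and LOC105246496 stood at or under 0.196, 0.481 and 0.901 CPM in every DDDA HB. Like Hist1h2ao, they met the filter on low counts through the standard diet libraries, so the size of these fold changes is uncertain.

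Livers of the same diets give each called gene a value from other libraries with the same division of sequencing runs. There 547 of 12803 genes (4.27%) were called higher on DDDA and 393 (3.07%) lower. Of the 28 genes called lower in HBs, 26 were tested in livers, 25 had the same direction and 20 were called lower. Of the 14 called higher, 9 were tested, all 9 had the same direction and 6 were called. Hif1a (0.52 in livers, adjusted p = 0.0385), Tpp1 (0.60, 0.0194) and Tma7 (-1.03, 8.09e-04) were among the genes called in both tissues. Cd36 had nearly the same log2 fold change in livers, 1.80, but with an SE of 0.71 (adjusted p = 0.147). Egln3 had 0.41 in livers (adjusted p = 0.158), Abcc3 0.50 (0.0845) and Zfhx3 -0.63 (0.0602). The test of the difference between tissues called none of 14502 genes by edgeR, and 877 had an unadjusted p under 0.05. Among the called genes, 8 of 28 lower and 2 of 14 higher were in that number, so a difference in response between HB and liver was not shown for any gene here. The 2 higher ones were Egln3 (unadjusted p = 5.09e-04) and Abcc3 (0.00874), and the lowest such p of the lower ones was that of Gm32643 (0.00123), the one called gene with the opposite sign in livers (0.25). Bhlhe40, which was not called in HBs, was at -0.63 in livers, and the difference had an unadjusted p of 1.52e-05 and an adjusted p of 0.132.

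**Figure D3:**
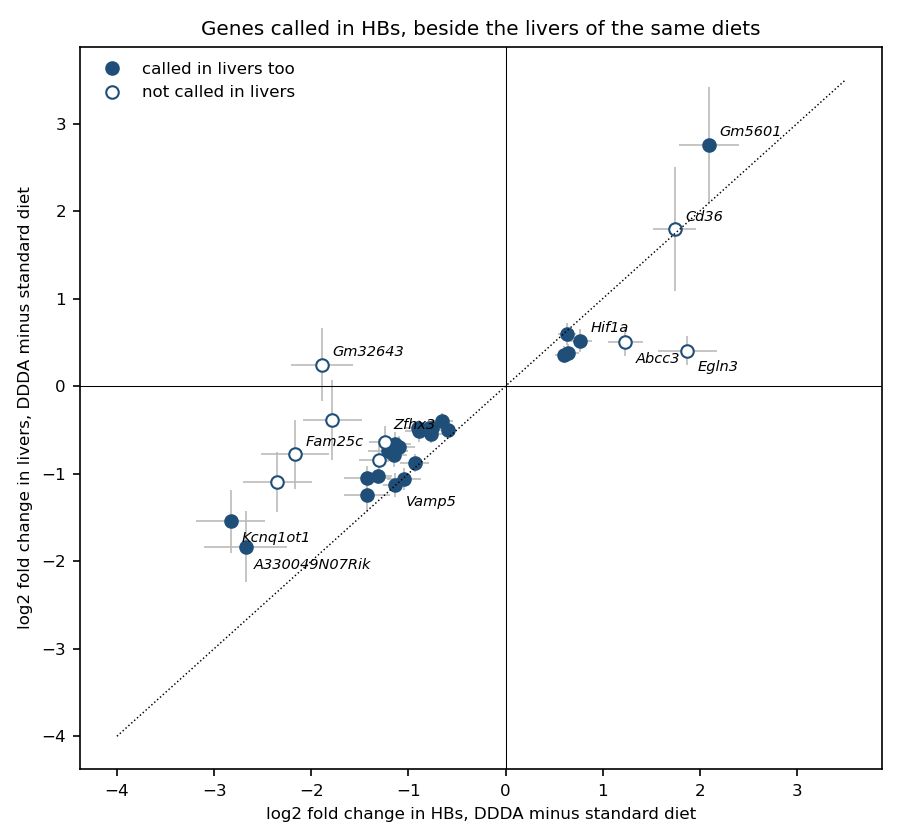
Log2 fold change between the diets (DDDA minus standard diet) in HBs (x axis) and in livers (y axis) for genes called in HBs and tested in livers, with standard errors as gray bars. Filled points are called in livers too, the dotted line marks equal values, and Hist1h2ao and Pcdhgc3 lie outside the axes and are left out. Gm32643 is the one gene above 0 in livers and below 0 in HBs, and Egln3, Abcc3 and Hif1a lie below the dotted line.

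Of genes that the study names for HBs of the 2 diets, Mif, Nqo1, Degs1, Sptlc2, Hif1a and Gstm5 are given here, and of these Hif1a alone was called. The study named Hif1a and Gstm5 from its results on these samples, so their direction is no independent evidence. It drew the other 4 from markers of earlier work on mice without Ehhadh, and named them as increased in the DDDA HBs. Their direction is thus no independent evidence either. Degs1 and Sptlc2 are enzymes of ceramide synthesis. Degs1 stood at 107, 93.8, 102, 92.4 and 115 CPM and at 118, 197, 150.03, 125 and 123, and Sptlc2 at 69.1, 66.4, 72.6, 41.8 and 48.0 and at 94.7, 67.4, 103, 56.6 and 88.8. Degs1 did not overlap between the diets, by a small margin, whereas Sptlc2 did. Gstm5, a glutathione transferase, stood at 12.9 to 24.3 against 26.1 to 39.2 CPM and did not overlap, while Nqo1, a quinone reductase, stood at 5.32 to 10.1 against 8.47 to 21.0. The cytokine Mif lay at 62.5 to 111 against 102 to 282 CPM, and the groups overlapped. By exact two-sided permutation tests of mean log2(CPM + 0.5), which for 5 against 5 can go no lower than 0.00794, p was 0.00794 for Hif1a, Degs1 and Gstm5, 0.0159 for Mif, 0.0635 for Nqo1 and 0.0714 for Sptlc2. In all 8 such tests were run, and their p-values are unadjusted. By edgeR, adjusted over all genes, p was 0.178 for Degs1, 0.143 for Gstm5, 0.166 for Mif, 0.255 for Nqo1 and 0.302 for Sptlc2. DESeq2 called Gstm5 as well as Hif1a (adjusted p = 0.0335 and 1.03e-05). It did not call Mif (0.0531), Degs1 (0.0998), Nqo1 (0.172) or Sptlc2 (0.267).

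In several other lists no gene was called. Of 29 lipogenesis and cholesterol synthesis genes 28 had a log2 fold change above 0 (median 0.68), and 7 had an unadjusted p under 0.05. The list lay at 8.72, 7.84, 8.53 and 8.73 in 4 DDDA HBs and at 6.30 in DT2264, against 7.19 to 7.91 on the standard diet (mean log2(CPM + 0.5)). DT3168 was within that range and DT3167, DT2270 and DT2277 were above it. DT2264 was below all 9 other HBs, and without it the median was 0.83, with Acly, the enzyme that makes cytosolic acetyl-CoA, and the sterol enzyme Nsdhl called at adjusted p of 0.0408 and 0.0408. Targets of β-catenin, one of the oncoproteins that drive these tumors, had 17 of 19 fold changes below 0 (median -0.79). They lay at 5.82 to 7.04 on the standard diet, and DT2270 (4.499) and DT2264 (4.46) were far below the other 3 DDDA HBs (5.99 to 6.61). Glul, glutamine synthetase, stood at 1056, 4469.9, 6468, 2412 and 2590.1 CPM against 859, 1182, 241, 2161 and 397 (adjusted p = 0.207), and Notum, a secreted Wnt inhibitor, at 27.03, 79.9, 80.8, 63.8 and 76.0 against 17.4, 27.98, 12.4, 45.2 and 5.80 (adjusted p = 0.173). YAP targets, the other driver's, had a median of 0.02 over 25 genes.

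Sgk1, a serum- and glucocorticoid-inducible kinase, stood at 19.4, 22.1, 16.2, 23.3 and 20.6 CPM and at 78.1, 235, 68.0, 36.5 and 86.0 (2.31, SE 0.43, adjusted p = 0.0565), and Sik1, a salt-inducible kinase, at 54.2 to 67.7 and 79.4 to 313 (adjusted p = 0.156). For both, the groups did not overlap and DT3168 was the highest. None of the 25 immediate early and salt-inducible kinase genes was called (median 0.39, 0.12 without DT2264). Among 18 chaperones of the endoplasmic reticulum the median was -0.21, and Manf, a secreted stress protein, stood at 182 to 275 against 119.7 to 179.9 CPM without overlap (adjusted p = 0.111). The integrated stress response list had a median of 0.13 over 25 genes, in which Ddit3, the transcription factor CHOP, was at -1.04 on the log2 scale (adjusted p = 0.136). Cell death genes had a median of 0.22 over 35, with Mlkl, the effector of necroptosis, at 13.3 to 18.3 against 19.2 to 29.2 CPM without overlap (adjusted p = 0.136). In that list the groups did not overlap in 2 genes with DDDA higher and in 2 with DDDA lower. Cell cycle genes had a median of 0.19 over 36, and -0.06 with sex as a covariate. Actin and adherens junction genes had a median of 0.42 over 29, with Tmsb10, an actin-binding thymosin, at 32.8 to 82.4 against 100.5 to 467 CPM (adjusted p = 0.0846), and acute phase genes had 0.21 over 24, or -0.38 without DT2264.

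The DDDA HBs differed from each other more than the standard diet HBs did. Over 11177 genes at a mean of 5 CPM or more, the median SD of log2(CPM + 0.5) was 0.31 on DDDA and 0.25 on the standard diet. The biological coefficient of variation, over all 14082 genes tested, was 0.522 and 0.301. Without DT2264 the median SD and this coefficient were 0.25 and 0.420 on DDDA. Pearson's r of log2 CPM across genes was 0.939 to 0.980 among standard diet HBs, 0.922 to 0.952 among 4 DDDA HBs and 0.839 to 0.898 between DT2264 and those 4. DT2264 was over 4-fold above the median of the other 4 DDDA HBs in 582 genes and as far below it in 138, which is 720 in all, against 172 to 293 for the other DDDA HBs and 47 to 111 for the standard diet HBs. The genes that set DT2264 farthest above the next DDDA HB were the macrophage elastase Mmp12 (1.47 to 394 CPM over the 5), the collagen cross-linking enzyme Lox (0.576 to 73.9), the vascular peptide Apln (1.09 to 141), Ltbp2, Prss23, the smooth muscle actin Acta2 (3.04 to 154), Slit3 and Tagln, all chosen after their values were seen. DT3167 and DT2270 departed in the other direction, with 210 and 268 genes over 4-fold below and 46 and 25 above.

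**Figure D4:**
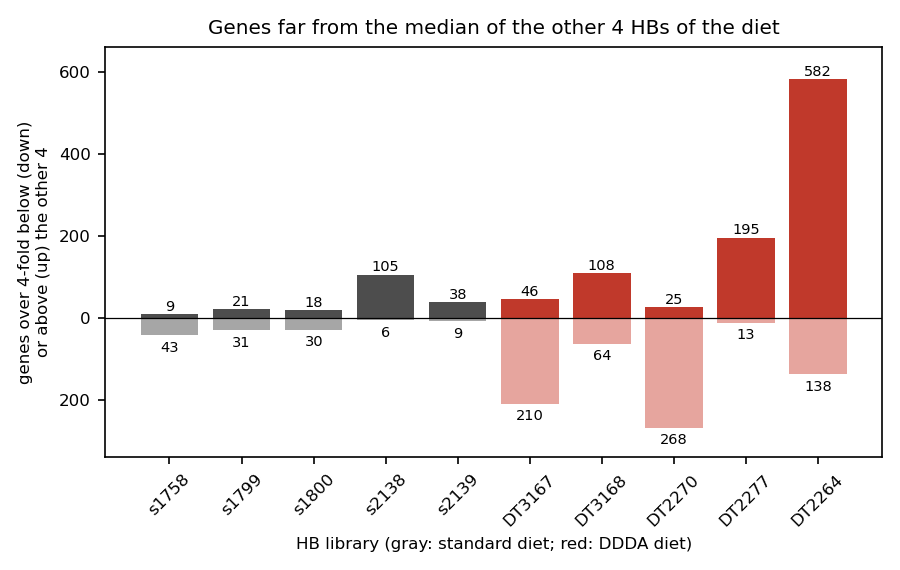
Number of genes in each HB that lay over 4-fold above (upward bars) or below (downward bars) the median of the other 4 HBs of its diet, of 11177 genes. Gray bars are standard diet and red bars DDDA. DT2264 has the most in all, 582 above and 138 below.

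Markers of cells other than hepatocytes moved with these departures. Of 16 stellate cell and fibroblast markers none was called, and the list lay at mean log2(CPM + 0.5) of 2.12, 3.10, 1.81, 4.81 and 6.64 on DDDA against 3.62 to 4.66 on the standard diet. DT3167, DT3168 and DT2270 were thus below the standard diet range and DT2277 and DT2264 above it, and the median log2 fold change of 1.15 became -0.59 without DT2264. Summed, these markers stood at 401 to 1052 CPM on the standard diet and 94.3 to 4693 on DDDA. Endothelial markers (15 tested) also spread more widely, from 1.94 in DT2270 to 5.67 in DT2264 against 3.40 to 4.38, as did macrophage markers (13 tested, 2.45 to 5.78 against 3.68 to 5.41) and smooth muscle markers (6 tested, 1.39 to 5.06 against 2.04 to 3.21). Their sums were 197 to 418, 366 to 1126 and 35.3 to 90.2 CPM on the standard diet and 75.6 to 1152, 191 to 1425 and 26.1 to 461 on DDDA. Clec4f, the defining marker of Kupffer cells, stood at 49.5, 81.6, 80.2, 281 and 70.8 CPM and at 7.28, 42.6, 0, 105 and 51.7, with no count in DT2270. Neutrophil markers (7 of 11 tested) were high in DT2277 (5.19) and DT2264 (5.87), against 1.27 to 1.66 in the other 3 and 1.64 to 2.82 on the standard diet. Ly6g, a defining marker, was at 0 in all standard diet HBs, and S100a9 stood at 0.869, 1.56, 0.3004, 68.9 and 78.3 CPM on DDDA. Erythroid markers (6 tested) lay at 3.10 to 8.23 against 4.29 to 6.63, T and NK cell markers (5 of 12 tested) at -0.72 to 0.98 against 0.14 to 2.30 and cholangiocyte and progenitor markers (9 tested) at 3.39 to 5.65 against 4.14 to 5.54. The 2 B cell markers tested, of 7, lay at -0.64 to 2.27 against -0.09 to 0.67. Hepatocyte markers (18 tested) lay at 9.33 to 10.98 against 9.37 to 10.91. The part of these cells in the differences between diets was not tested.

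**Figure D5:**
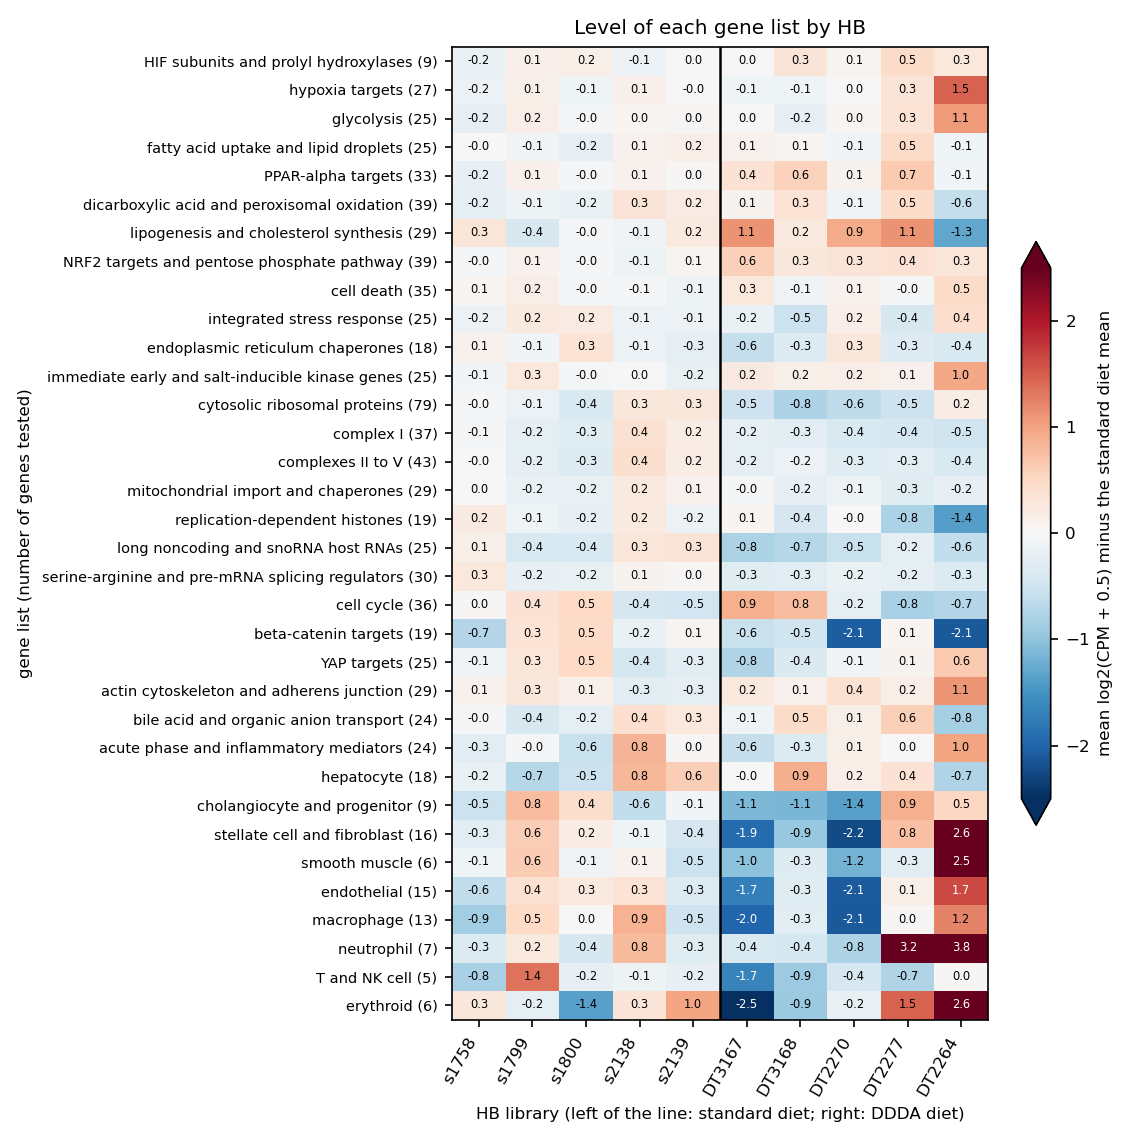
Level of gene lists with 5 or more genes tested (rows) in each HB (columns), as mean log2(CPM + 0.5) minus the mean of the 5 standard diet HBs. The γ-protocadherins, with 8 genes tested, are left out. Red is above and blue below that mean, the color scale ends at 2.5 in either direction, and the numbers give the values. Stellate cell markers lie above 0 in DT2277 and DT2264 and below it in the other 3 DDDA HBs.

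The 12 genes with the largest SD among DDDA HBs were mostly of 2 kinds, and are given as a description. Cyp2a4, Cyp3a41a, A1bg, Cyp2b9, Cyp3a41b, Mup10 and Cyp4a12a are liver genes known to differ between male and female mice. Cyp2a4 stood at 5.38, 841, 0.120, 1006 and 125 CPM on DDDA and at 0.720, 12.3, 19.8, 14.2 and 6.35 on the standard diet. Among the 4 female DDDA HBs it thus ran from 5.38 to 1006 CPM. Mup10, a major urinary protein, stood at 457, 86.8, 53.2, 4528 and 1069.9 CPM on the standard diet and at 0, 188, 11.2, 6.06 and 1.58 on DDDA, where DT3167 had no count. Xist, the RNA of the inactive X chromosome, followed the labels of sex in all 10 HBs, with 361 to 854 CPM in females and 0.554 to 1.93 in males. The neutrophil granule genes Ngp, S100a9 and Mpo and the Kupffer cell gene Clec4f made up the rest, and the first 3 were at or above 27.2 CPM in DT2277 and DT2264 and at or under 1.56 in the other 3.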

How the data were processed

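RNA was taken from healthy-appearing tumor regions (RNA integrity number 8.5 to 10), poly(A)-selected, made into directional libraries and, per the study, read on an Illumina NovaSeq. The study names CLC Genomics Workbench, edgeR and DESeq2 as its tools for comparing counts, and the submitters' processing notes name GRCm38.p6. The aligner is not given in the sources used here. Whether counting used strand is not given in the sources used here. The deposited table holds counts per gene (not normalized) and RPKM, scaled by the authors for length and depth, for 36333 genes. RPKM served only to derive summed exon length, which was obtained for 23919 genes. The table also has 40 per-sample columns of other units and 36 columns of the authors' own comparisons (fold changes and p-values), and none of these was used. The 5 tumors of long-term DDDA were not analysed here. Counts were filtered with filterByExpr, scaled by TMM and tested with glmQLFTest in edgeR 4.0.16 (R 4.3.3), 5 against 5, with Benjamini-Hochberg adjustment over 14082 genes and a threshold of 0.05. Livers were fitted apart, and the difference between tissues was an interaction over 20 libraries. Log2 fold changes are DDDA minus standard diet. CPM use TMM library sizes, and log2 levels use a pseudocount of 0.5. Lists are described by counts and medians, with no set test. The scripts were tested on simulated data. Named genes were all called genes, the called members and up to 3 with the smallest p of each list, 8 genes the study names (not all are reported here) and the 12 with the largest SD among DDDA HBs. The members and lists were chosen with earlier results of these data known. Alternatives were DESeq2 1.42.0, RLE size factors, no filter on low counts, sex as a covariate, removal of a length trend, all 20 libraries in one fit and each library left out. Leaving out DT2264 and DT2277 together and the females alone were added after seeing the data.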

Additional observations from a re-analysis of the deposited data

Results flagged for a closer look

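In 10 of 158 groups of 5 HBs, 1 library lay far from the other 4 by Dixon's gap test (critical value 0.71), and chance gives about 1 in 20. Values are mean log2(CPM + 0.5) of a list, or log2(CPM + 0.5) of a gene, in that library and in the other 4 of its diet. DT2264 was high in hypoxia targets (6.397 against 4.82 to 5.25), immediate early and salt-inducible kinase genes (5.71 against 4.85 to 4.97), cytosolic ribosomal proteins (8.64 against 7.69 to 7.94), actin and adherens junction genes (8.46 against 7.44 to 7.73) and smooth muscle markers (5.06 against 1.39 to 2.33). DT3167 was high in NRF2 and pentose phosphate genes (6.66 against 6.34 to 6.42). Of single genes, Cd36 was high in DT2270 (8.54 against 7.71 to 7.93) and Phpt1 low in DT3168 (3.95 against 4.30 to 4.40) on DDDA, while Fam25c was high in s1799 (6.86 against 6.16 to 6.30) and Ndufa3 in s2138 (6.28 against 5.61 to 5.79) on the standard diet.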

How the results depend on the processing

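The 42 called genes kept their direction in every alternative run. Leaving out libraries could hardly change it, because the groups of these genes did not overlap. The number called did not hold. DESeq2 called 336 higher and 399 lower, all 20 libraries in one fit 367 and 313, RLE size factors 15 and 26, every gene with at least 1 count 9 and 16, sex as a covariate 6 and 12, and removal of the length trend 20 and 21. With 1 library left out the counts ran from 0 to 60 higher and from 1 to 63 lower, without DT2264 and DT2277 they were 85 and 90, and in females alone 0 and 0 by edgeR (924 at an unadjusted p under 0.05). Of the 42, DESeq2 called 42, all 20 libraries in one fit 41 (all but Cd36), RLE size factors 40, every gene with at least 1 count 24, the sex covariate 11 and the females none. Of the 103 named genes that were not called, DESeq2 called 35 and left 61 uncalled. All 20 libraries in one fit called 33 and left 70 uncalled. Those called by DESeq2 included Bhlhe40 (adjusted p = 4.82e-04), Cyp4a14 (9.23e-04), Pgd (0.00102), Manf (0.0139) and Mlkl (0.0242). Some of the 103 changed the sign of their log2 fold change. Without DT2264 and DT2277, Afp became -0.016, Col6a1 -1.66, Acta2 -1.03, Tagln -1.40, Emcn -0.28, Cd68 -0.32, Mmp9 -0.24, S100a9 -1.63, Jchain -2.51, Cd79b -1.15, Slc4a1 -0.15, Alas2 -0.14, Ngp -2.26, A1bg -2.20, Mpo -3.06 and Cyp3a41b -0.14. In females alone Saa1 became 0.0057, Cd163 0.069 and Xist -0.0099, and with sex as a covariate Xist became -0.048. Rom1 (-0.01) became 0.0022 with every gene of at least 1 count, 0.080 with the sex covariate and 0.027 with the length trend removed. With 1 library left out the ranges were Afp -0.25 to 3.41, Acta2 -1.08 to 2.44, Tagln -1.31 to 1.93, Emcn -0.22 to 1.35, Cd68 -0.15 to 1.36, Cd79b -0.42 to 0.73, A1bg -2.003 to 2.48, Cyp4a12a -2.06 to 0.84 and Rom1 -0.24 to 0.11. The cause was not tested. No paired analysis was possible because the labels give animal names and no replicate numbers shared between the diets. Genes of few counts, such as single γ-protocadherins, are limited by depth in the standard diet HBs.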

Other observations

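A few transcripts little known from liver, chosen after their values were seen, had counts in 4 of the 5 DDDA HBs. Sec14l3, a lipid-binding protein of airway epithelium, had no count in any standard diet HB or any liver and 38, 0, 56, 14 and 30 counts in the DDDA HBs, in the order DT3167, DT3168, DT2270, DT2277 and DT2264. Scgb1a1, the secretoglobin of airway club cells, had 2, 0, 0, 0 and 0 and 13, 0, 29, 9 and 32 counts, and Reg3g, an antimicrobial lectin of the gut, had no count on the standard diet and 12, 0, 3, 4 and 27 on DDDA. DT3168, the one HB on its flow cell, which also held the DDDA liver DL03, had no count of any of these 3 genes. Other markers of airway and secretory epithelium were mixed. Scgb3a2, Bpifa1, Bpifb1 and Muc5ac also had no count in any standard diet HB and some counts on DDDA, whereas Foxj1 and Scgb3a1 did not follow. Foxj1, the one tested, was at -0.80 on the log2 scale (adjusted p = 0.592 by edgeR), and Scgb3a1 had 1, 0, 1, 1 and 1 counts on the standard diet and 3, 0, 0, 1 and 3 on DDDA. The source of these reads was not tested.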
